A study of Mus musculus with 12 samples.

Results

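The genes described here encode the protein complexes that TNF receptor 1 assembles on the way to cell death: Tradd, Ripk1, Fadd, Casp8, Ripk3, Mlkl, Traf2, Birc2 and Cyld. They were taken by symbol from a table of transcript abundances, their transcripts were added up per gene identifier, and all 9 were found among 35688 genes. RNA came from whole colons of 2-week-old mice that lacked the anti-inflammatory cytokine interleukin 10 (Il10-/-, 5 mice) or lacked both this cytokine and TNF receptor 1 (Il10-/- Tnfr1-/-, 6 mice). Il10 was missing in both genotypes, and no colon with intact Il10 was among the samples. The labels name neither the alleles, the strain, the sex nor the litter, so the mice can be described only by genotype and age. Sample names are numbers whose first digit the labels do not explain, and only names that start with 1 occur in both genotypes (3 Il10-/- and 2 Il10-/- Tnfr1-/- mice). Each sample was one colon of full thickness, so mucosa, muscle, nerve cells and leukocytes were measured as a mixture.

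When TNF binds TNF receptor 1, the adaptor TRADD and the kinase RIPK1 are recruited together with TRAF2 and the ubiquitin ligase cIAP1, the product of Birc2. Ubiquitin chains laid down there hold the complex in a state that signals survival and inflammation, and the deubiquitinase CYLD removes such chains. A second complex can form in the cytosol, in which FADD brings together caspase-8 molecules and apoptosis begins. Where caspase-8 is inactive, RIPK1 and RIPK3 join through their shared interaction motif, RIPK3 phosphorylates MLKL, and MLKL breaches the plasma membrane, a form of death called necroptosis. In the intestinal epithelium of mice, caspase-8 and FADD are known to hold this necroptotic branch in check.

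The values are abundances that were scaled per transcript length, so levels can be set side by side between genes, but they are not counts and the depth of each library is unknown. The abundances of a library added up to between 804109 and 1378971. The highest sum, in Il10-/- replicate 6, came with the highest share of transcripts at 0 (55.1%) and the highest share of signal on transcripts under 700 bases (51.1%). Tnfrsf1a, the gene of the deleted receptor, was at 47.9 ± 18.5 (SD, n = 5) and 14.8 ± 2.34 (SD, n = 6), with every Il10-/- Tnfr1-/- colon below every Il10-/- colon (exact permutation p = 0.00216, the smallest that 462 assignments allow; limma adjusted p = 0.125, the smallest of the table). All 10 smooth muscle markers were higher on average in Il10-/- Tnfr1-/- colons, and the mean of their centred log2 values differed with an exact permutation p of 0.0801. The summed level of these markers ran from 184 to 3505 in Il10-/- and from 828 to 8010 in Il10-/- Tnfr1-/- colons. No marker of the 6 cell type lists was at 0 in every colon.

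Levels ranged over an order of magnitude. Averaged over the 11 colons, Ripk3 (84.3), Casp8 (83.1) and Tradd (52.3) were the most abundant, followed by Mlkl (18.0), Ripk1 (15.3), Birc2 (12.0), Traf2 (10.8), Cyld (9.04) and Fadd (6.71). The first place of Ripk3 rested on few libraries, since Ripk3 exceeded Casp8 in only 3 of 11 colons. It also rested on noncoding transcripts, which held 72.3% of the Ripk3 signal in Il10-/- and 58.1% in Il10-/- Tnfr1-/- colons. On coding transcripts alone, Ripk3 ran from 8.63 to 56.7. Casp8 exceeded Tradd in 9 of 11 and Tradd exceeded Mlkl in 11 of 11 colons, whereas Mlkl and Ripk1 were in this order in 6 of 11. Variation between colons differed widely along the list: the highest colon had 21.4 times the Ripk3 level of the lowest, against 1.52 times for Birc2 and 1.59 times for Fadd. The coefficient of variation was 104% for Ripk3, 61.1% for Mlkl, 49.2% for Tradd and 40.2% for Casp8, against 12.8% for Fadd. The median over the 9 genes was 34.1%, beside 32.9% over all 13561 genes tested.

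The comparison of the genotypes asks how the early-life colon without interleukin 10 differs when TNF receptor 1 is also missing. No gene of the death complexes passed the threshold in limma's test with Benjamini-Hochberg adjustment (0 of 9), as no gene of the whole table did (percent called: 0 of 13561 genes). At an unadjusted p under 0.05 there was 1 member, Ripk3, beside 8.34% of all genes, with 3.6% lower and 4.74% higher in Il10-/- Tnfr1-/- colons. The genotypes overlapped for every member, and 0.575% of all genes showed no overlap. By mean log2 value 7 members were lower and 2 were higher in Il10-/- Tnfr1-/- colons, beside 44.5% of all genes that were lower; 3 of the 7 (Ripk1, Fadd and Birc2) changed sign with an equal total per library. The median log2 fold change was -0.12 over the members and 0.05 over all genes. In bulk tissue, fewer cells of a type and less RNA per cell cannot be told apart.

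**Figure D1:**
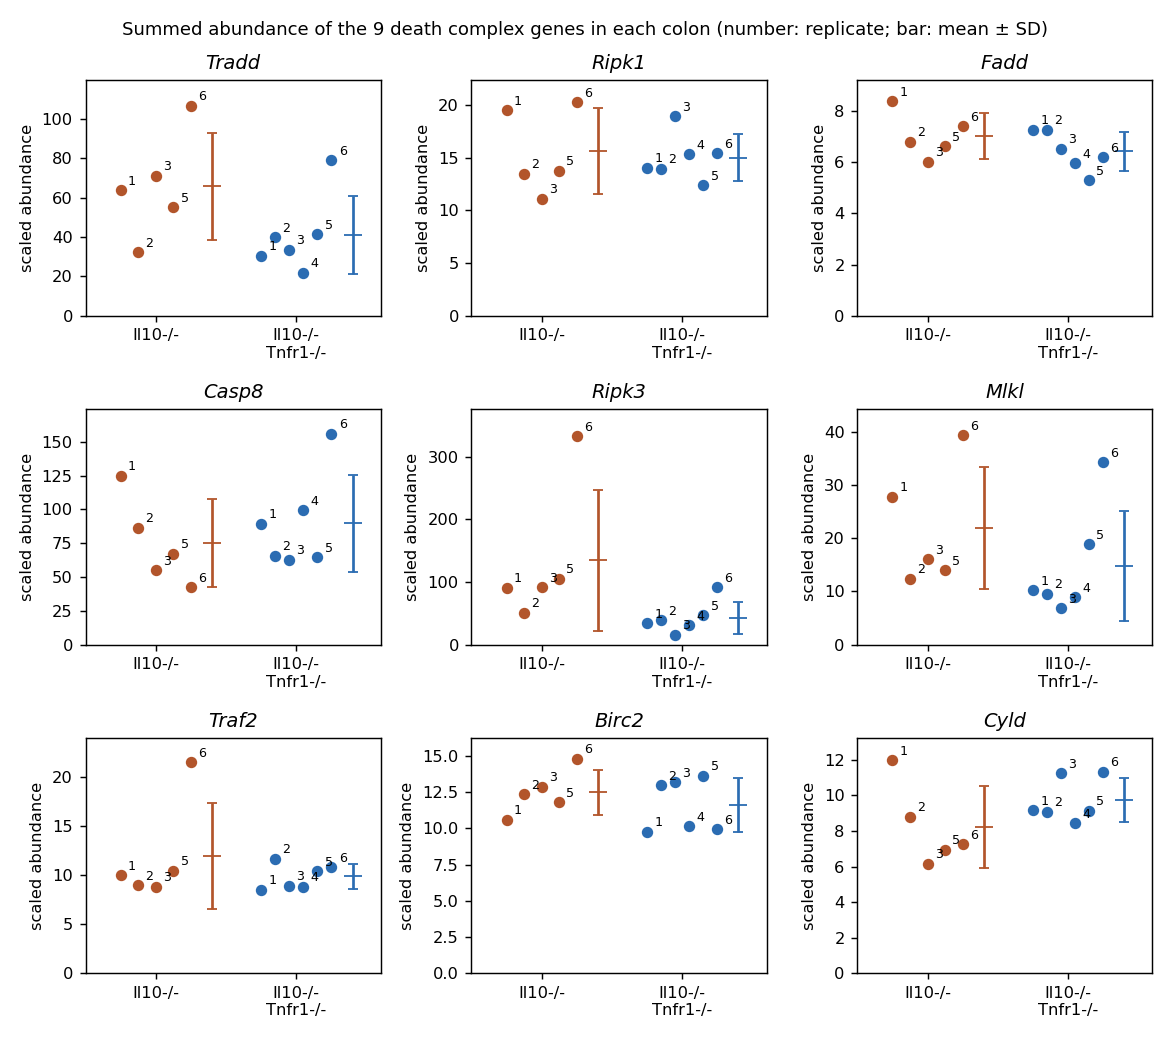
Summed abundance (y axis, deposited scale) of each death complex gene in each colon, by genotype; points are colons labelled with the replicate number, and bars give the mean and SD of 5 Il10-/- and 6 Il10-/- Tnfr1-/- colons. In the Ripk3 panel 5 of 6 Il10-/- Tnfr1-/- colons lie below every Il10-/- colon, while in the Ripk1, Fadd, Birc2 and Cyld panels the genotypes interleave.

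Tradd, the adaptor that docks on the death domain of the receptor (mm10 chr8:105258286-105264609, minus strand), was measured at 63.8, 32.3, 71.1, 55.0 and 107 in the Il10-/- colons and at 30.4, 39.8, 33.6, 21.9, 41.4 and 79.1 in the Il10-/- Tnfr1-/- colons. Of the latter, 5 lay below all Il10-/- colons except replicate 2, and replicate 6 stood well above its group. The means were 65.8 ± 27.1 (SD, n = 5) and 41.0 ± 19.9 (SD, n = 6), a log2 fold change of -0.69 ± 0.33 (SE; limma adjusted p = 0.536, exact permutation p = 0.0974). A single coding transcript, Tradd-201, carried 86.4% of the gene's signal on average, so the value did not hinge on how transcripts were added up (-0.64 from coding transcripts alone).

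Traf2, the scaffold that brings the cIAP ligases to the complex (chr2:25517982-25546940, minus strand), was at 11.9 ± 5.38 (SD, n = 5) and 9.87 ± 1.28 (SD, n = 6). The Il10-/- colons read 9.99, 8.96, 8.82, 10.5 and 21.5, and the Il10-/- Tnfr1-/- colons ranged from 8.53 to 11.7. The higher Il10-/- mean and its larger SD came from replicate 6 alone. The log2 fold change was -0.19 ± 0.22 (SE) with all colons and 0.04 without that replicate.

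Birc2, the gene of the ligase cIAP1 (chr9:7818227-7837064, minus strand), was among the steadiest members at 12.5 ± 1.55 (SD, n = 5) and 11.6 ± 1.83 (SD, n = 6), with a log2 fold change of -0.11 ± 0.15 (SE). Within the Il10-/- Tnfr1-/- colons its values split into a lower set of 9.77, 10.1 and 9.94 and a higher set of 12.99, 13.2 and 13.6, with no colon between. The lower set lay below every Il10-/- colon (10.6 to 14.8), and the higher set lay within their range. Cyld, the deubiquitinase (chr8:88697028-88751945, plus strand), was at 8.22 ± 2.30 (SD, n = 5) and 9.73 ± 1.24 (SD, n = 6). This was a log2 fold change of 0.26 ± 0.18 (SE; limma adjusted p = 0.561, exact permutation p = 0.171). Il10-/- replicate 1, at 12.0, was the highest colon of all, while the other Il10-/- colons read 8.80, 6.17, 6.93 and 7.25 beside 8.42 to 11.3 in Il10-/- Tnfr1-/- colons. Cyld signal was spread over several coding transcripts, of which Cyld-204 held 36.04% and Cyld-203 29.1% on average.

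Fadd, the adaptor between death domains and caspase-8 (chr7:144577318-144582463, minus strand), was the least abundant member at 7.05 ± 0.90 (SD, n = 5) and 6.43 ± 0.78 (SD, n = 6). It ranged from 6.02 to 8.40 in Il10-/- and from 5.29 to 7.29 in Il10-/- Tnfr1-/- colons, a log2 fold change of -0.12 ± 0.15 (SE; exact permutation p = 0.242). Its 1 annotated transcript overlaps an antisense gene, Faddos, and no source used here says whether the authors' quantification used strand.

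Casp8, the initiator caspase (chr1:58795374-58847503, plus strand), was measured at 125, 86.4, 54.9, 67.2 and 42.3 in Il10-/- colons and at 89.5, 65.8, 62.6, 99.3, 64.6 and 156 in Il10-/- Tnfr1-/- colons. High and low colons occurred in both genotypes. The means of 75.2 ± 32.3 (SD, n = 5) and 89.6 ± 35.8 (SD, n = 6) gave a log2 fold change of 0.27 ± 0.30 (SE; limma adjusted p = 0.687, exact permutation p = 0.435). Casp8 was the only member among the most variable ones that was not lower on average in Il10-/- Tnfr1-/- colons, although among the 5 colons whose names start with 1 its log2 fold change was -0.13.

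The transcripts of Casp8 varied more than their sum. Casp8-202 carried 74.8% of the signal on average, and Casp8-203, which has 116 bases at its 5' side that Casp8-202 lacks, carried between 0% and 45.2%. Casp8-203 shares 1512 bases with Casp8-202, which is 1917 bases long, so the 2 transcripts also differ elsewhere. The bases that Casp8-202 lacks hold the start codon of Casp8-203 and are shown for that reason. The coding part of them follows, with the start codon in capitals (mm10 chr1:58804083-58804114, plus strand, from the GENCODE M21 transcript).
Casp8-203: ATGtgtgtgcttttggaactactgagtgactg
Casp8-203 was at 44.3, 16.7, 0, 0.44 and 8.97 in Il10-/- and at 8.47, 12.3, 28.3, 30.0, 4.62 and 38.9 in Il10-/- Tnfr1-/- colons. It was at or near 0 in Il10-/- replicates 3 and 5 and above 4 in every Il10-/- Tnfr1-/- colon. The spread within Il10-/- was as wide as the range of the other genotype, and the log2 fold change of 1.70 ± 1.11 (SE) was not called (limma adjusted p = 0.646 over 27895 transcripts).

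Ripk1, the kinase that acts in both the survival and the death complex (chr13:34002363-34037147, plus strand), was nearly level between the genotypes at 15.6 ± 4.05 (SD, n = 5) and 15.0 ± 2.22 (SD, n = 6). The Il10-/- colons formed a low set of 13.5, 11.1 and 13.8 and a high pair of 19.5 and 20.3, which lay on either side of most Il10-/- Tnfr1-/- colons (12.4 to 18.9). The log2 fold change was -0.03 ± 0.18 (SE; limma adjusted p = 0.943).

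Ripk3, the kinase that licenses necroptosis (chr14:55784995-55788865, minus strand), showed the widest difference. The Il10-/- colons read 91.0, 50.7, 91.8, 105 and 333, and the Il10-/- Tnfr1-/- colons 33.9, 38.4, 15.5, 30.4, 46.9 and 91.0. All Il10-/- Tnfr1-/- colons except replicate 6 were below every Il10-/- colon, and Il10-/- replicate 6 stood far above the rest of its group. The means were 134 ± 113 (SD, n = 5) and 42.7 ± 25.8 (SD, n = 6), so that the Il10-/- Tnfr1-/- mean was 31.8% of the other. The log2 fold change was -1.53 ± 0.48 (SE; unadjusted p = 0.00755 and adjusted p = 0.536 with limma, exact permutation p = 0.0152). Without Il10-/- replicate 6 it was -1.12, and with the smooth muscle score added to the model -0.83. It was -1.05 among the 5 colons whose names start with 1, too few for an exact p under 0.1.

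On average, most of the Ripk3 signal lay on a transcript that is annotated as noncoding. Ripk3-206 is a 478-base transcript of the retained intron class that shares 414 bases with the last exons of the coding transcript Ripk3-201 and adds 64 bases of intron. It carried 56.5% of Ripk3 signal on average and 86.5% in Il10-/- replicate 6. Its first exon is shown because these few intronic bases are what set it apart from coding Ripk3 RNA, and they are in capitals (mm10 chr14:55785862-55785983, minus strand, GENCODE M21).
Ripk3-206: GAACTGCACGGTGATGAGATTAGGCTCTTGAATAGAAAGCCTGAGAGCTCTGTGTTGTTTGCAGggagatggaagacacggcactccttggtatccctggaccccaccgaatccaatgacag
None of the 45 stretches of 20 bases in the capitals occurred in an annotated transcript of another gene (0 of 45, either strand). The abundance of Ripk3-206 was 32.6, 29.4, 67.2, 61.0 and 288 in Il10-/- and 15.1, 23.9, 5.39, 12.96, 30.3 and 55.1 in Il10-/- Tnfr1-/- colons. The outlying Ripk3 value of Il10-/- replicate 6 was therefore a value of this transcript, since the coding transcript Ripk3-201 in the same colon, at 19.4, lay within the range of its group (13.6 to 46.6).

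Summed over coding transcripts only, a choice made after seeing the data, Ripk3 was at 37.2 ± 15.0 (SD, n = 5) and 17.9 ± 8.88 (SD, n = 6). The log2 fold change was then -1.06 ± 0.34 (SE; limma adjusted p = 0.545, exact permutation p = 0.0281), and from the principal transcript Ripk3-201 alone it was -0.82 ± 0.35 (SE). The minor coding transcript Ripk3-202 was the 1 tested transcript of the members whose genotypes did not overlap (0.416% of all transcripts tested), at 3.07 to 6.29 in Il10-/- and at most 2.82 in Il10-/- Tnfr1-/- colons (log2 fold change -1.83 ± 0.44 SE, limma adjusted p = 0.646). It holds 81 bases that Ripk3-201 lacks and made up 3.28% of Ripk3 signal on average. Of the 46 transcripts of the 9 genes, 24 passed the filter on low values and 0 passed limma's adjusted threshold, as 0 of 27895 did over the table (1748, or 6.27%, were at an unadjusted p under 0.05). The 4 members' transcripts at an unadjusted p under 0.05 were Ripk3-201, Ripk3-202, Ripk3-206 and Tradd-204. In the authors' deposited table the smallest q-value of a member's transcript was 0.684.

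Mlkl, the pseudokinase that breaches the membrane (chr8:111311797-111338177, minus strand), was at 27.8, 12.3, 16.0, 14.0 and 39.3 in Il10-/- and at 10.2, 9.51, 6.78, 8.93, 18.8 and 34.2 in Il10-/- Tnfr1-/- colons. In Il10-/- Tnfr1-/- 4 colons were below every Il10-/- colon, and replicates 5 and 6 were not. The means were 21.9 ± 11.5 (SD, n = 5) and 14.7 ± 10.4 (SD, n = 6), a log2 fold change of -0.64 ± 0.42 (SE; limma adjusted p = 0.547, exact permutation p = 0.197). Here the difference lay outside the coding transcripts: on these alone the log2 fold change was -0.12, and on the principal transcript Mlkl-202 it was 0.30 ± 0.54 (SE).

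The remainder was Mlkl-203, a 679-base processed transcript with 212 bases that Mlkl-202 lacks, all of them intronic in the coding transcript. Its first 2 exons are shown with those bases in capitals (mm10 chr8:111315493-111316119, minus strand, with the intron between the exons left out).
Mlkl-203: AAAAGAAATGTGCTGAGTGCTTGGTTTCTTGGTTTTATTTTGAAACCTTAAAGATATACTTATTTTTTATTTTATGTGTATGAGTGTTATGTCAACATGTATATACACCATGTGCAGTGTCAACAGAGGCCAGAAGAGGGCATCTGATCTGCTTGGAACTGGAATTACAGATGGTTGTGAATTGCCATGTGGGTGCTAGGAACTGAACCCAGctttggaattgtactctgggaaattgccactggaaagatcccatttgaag
The capitals are not particular to Mlkl at short range: 52 of their 193 stretches of 20 bases also occur in annotated transcripts of other genes (124 genes), while 0 of 182 stretches of 31 bases do. Mlkl-203 was at 0.48, 3.83, 10.5, 4.57 and 30.0 in Il10-/- and at 2.55, 1.52, 0, 1.69, 9.99 and 8.53 in Il10-/- Tnfr1-/- colons. The principal transcript Mlkl-202 read 22.5, 6.88, 4.07, 6.24 and 1.37 and then 6.08, 6.57, 6.04, 5.90, 5.17 and 18.9. Il10-/- replicate 6 thus had the highest summed Mlkl and the lowest Mlkl-202, with 76.3% of its signal on Mlkl-203.

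**Figure D2:**
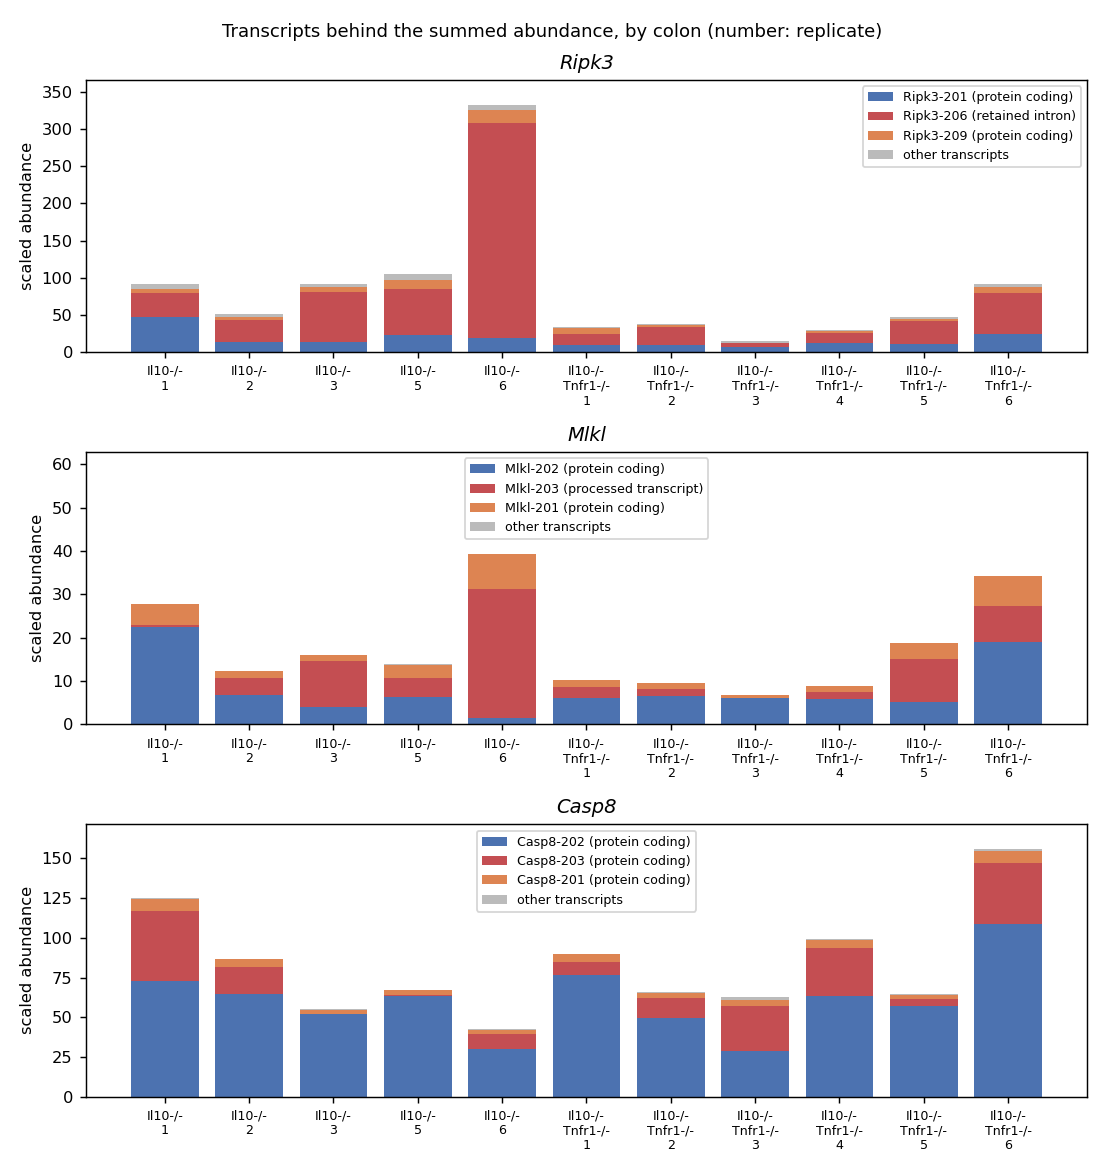
Abundance of the transcripts of Ripk3, Mlkl and Casp8 (stacked bars, deposited scale) in each of 11 colons, labelled by genotype and replicate number. The tall Ripk3 and Mlkl bars of Il10-/- replicate 6 are made up of Ripk3-206 (86.5%) and Mlkl-203 (76.3%), and the Casp8-203 segment is at or near 0 in Il10-/- replicates 3 and 5.

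The share of such transcripts moved with a property of the library. Over all genes, between 5.51% and 10.1% of a library's signal was on transcripts of the retained intron class, with the highest values in Il10-/- replicates 3 and 6. Across 11 colons this share correlated with the part of Ripk3 on Ripk3-206 (Pearson r = 0.89, Spearman rho = 0.84, permutation p = 9.0e-05, adjusted over 4 relations 0.00026). It also correlated with the part of Mlkl on Mlkl-203 (r = 0.93, rho = 0.79) and of Ripk1 on the retained intron transcript Ripk1-205 (r = 0.89, rho = 0.86). Without the 2 colons farthest from the median the values were 0.84, 0.83 and 0.83, and centred on genotype means they were 0.87, 0.92 and 0.86. The part of Casp8 on Casp8-203 gave r = -0.55 (permutation p = 0.0795). These 4 relations were chosen after the values had been seen, and their part in the genotype differences was not tested. In Il10-/- colons 62.4% ± 19.0 (SD, n = 5) of Ripk3 was on Ripk3-206, and 51.5% ± 12.5 (SD, n = 6) in the other genotype (exact permutation p = 0.284).

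**Figure D3:**
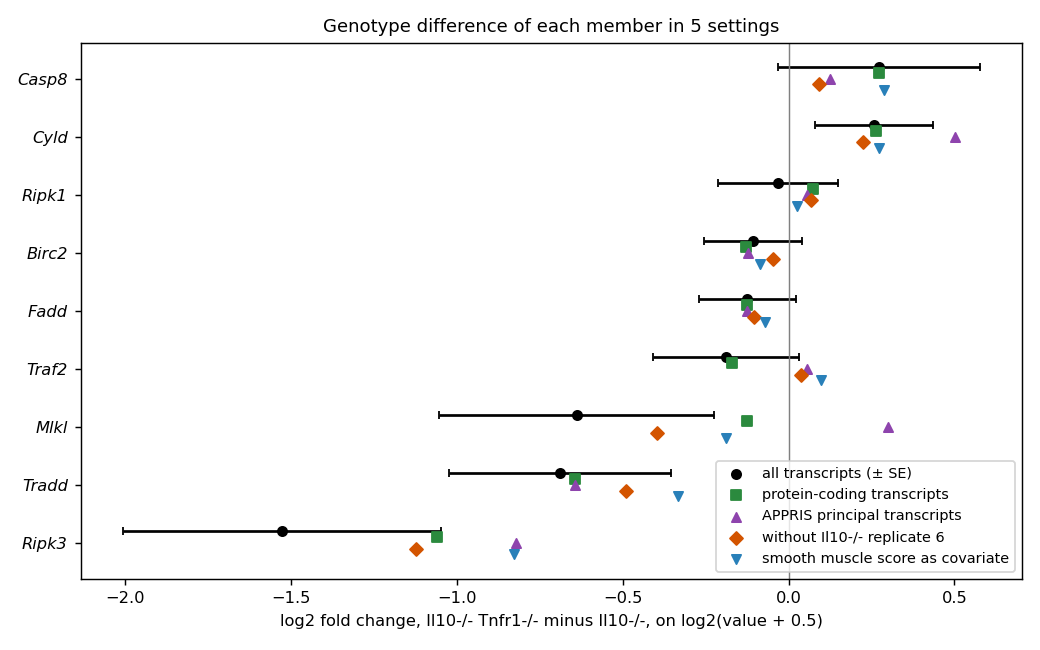
Log2 fold change of each death complex gene (x axis, Il10-/- Tnfr1-/- minus Il10-/-, on log2(value + 0.5)) with all transcripts (black, bar: SE), with coding or principal transcripts only, without Il10-/- replicate 6, and adjusted for the smooth muscle score. Ripk3 lies between -1.53 and -0.82 in all 5 settings, whereas Mlkl moves from -0.64 to 0.30 and Ripk1 and Traf2 sit on both sides of 0.

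Ratios of genes within a library do not depend on scaling between libraries, and 4 were compared. The log2 ratio of Ripk3 to Casp8, the pair between necroptosis and its brake, was -0.46, -0.77, 0.74, 0.64 and 2.96 in Il10-/- colons and -1.39, -0.77, -1.98, -1.69, -0.46 and -0.77 in Il10-/- Tnfr1-/- colons. Summed over all transcripts, every Il10-/- Tnfr1-/- colon held less Ripk3 than Casp8, as did Il10-/- replicates 1 and 2. On coding transcripts only Il10-/- replicate 6 held more Ripk3 (43.7) than Casp8 (42.3). The mean went from 0.62 ± 1.46 (SD, n = 5) to -1.18 ± 0.60 (SD, n = 6), a difference of -1.80 (exact permutation p = 0.00433, 0.0173 adjusted over the 4 ratios). On coding transcripts it was -1.33, with the same adjusted p of 0.0173 by the exact permutation test. Without Il10-/- replicate 6 the difference over all transcripts was -1.21 and no longer called (exact permutation, adjusted p = 0.0571). Among the 5 colons whose names start with 1 it was -0.92.

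The log2 ratio of Mlkl to its kinase Ripk3 was -1.69, -1.99, -2.48, -2.86 and -3.07 in Il10-/- and -1.69, -1.96, -1.14, -1.71, -1.29 and -1.40 in Il10-/- Tnfr1-/- colons. Il10-/- replicates 1 and 2 fell in or next to the range of the other genotype, and the remaining 3 were lower. The mean rose from -2.42 ± 0.58 (SD, n = 5) to -1.53 ± 0.31 (SD, n = 6), a difference of 0.89 (exact permutation p = 0.0130, adjusted 0.0260), and 0.93 on coding transcripts. It too lost its call without Il10-/- replicate 6 (0.73, adjusted p = 0.0571 by exact permutation), and was 0.23 among the colons whose names start with 1. The ratio of Cflar, which encodes the catalytically inactive partner of caspase-8, to Casp8 differed by -0.45 (exact permutation p = 0.288). The ratio of Birc3 to Birc2, the genes of both cIAP ligases, differed by -0.04 (exact permutation p = 0.881). Both called ratios contain Ripk3, so they do not stand apart from each other or from the Ripk3 difference above. How many ratios of other genes reach such a p was not computed.

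Some of the members also varied together from colon to colon. Of 36 pairs, 27 had a positive Pearson r of their log2 values, and 4 (11.1%) passed the threshold after adjustment over the 36, each with an absolute r of at least 0.86. Of all pairs of tested genes, 2.35% reached the smallest of these 4 values. The median r was 0.23, beside 0.03 over all pairs of tested genes. Several of the 27 positive pairs turned negative with an equal total per library, so that count depended on scaling. No share of positive pairs over all genes was set beside it. Tradd, Ripk3 and Mlkl formed a triangle: r was 0.87 for Tradd and Ripk3 (rho = 0.84), 0.86 for Ripk3 and Mlkl (rho = 0.82) and 0.86 for Tradd and Mlkl (rho = 0.85). Each had an adjusted permutation p of 0.00747. Without the 2 colons farthest from the median r was 0.78, 0.73 and 0.71, and no pair then passed the threshold (0 of 36). Centred on the genotype means it was 0.82, 0.87 and 0.83. Within the 5 Il10-/- colons it was 0.91, 0.82 and 0.82, and within the 6 Il10-/- Tnfr1-/- colons 0.75, 0.93 and 0.84. With so few colons the smallest exact p (0.00833 for 5 and 0.00139 for 6) cannot bring a lone pair of 36 under the adjusted threshold. Several pairs would have to reach small p together, and 0 reached the smallest. The 5 colons whose names start with 1 are too few for a correlation.

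Coding transcripts gave a looser triangle, with r of 0.73 for Tradd and Ripk3, 0.65 for Ripk3 and Mlkl and 0.46 for Tradd and Mlkl. None of these 3 passed the threshold, and 1 of 36 pairs did. With an equal total per library, the values of the triangle were 0.78, 0.79 and 0.80, each still called by permutation (adjusted p = 0.0448).

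The fourth pair was inverse. Casp8 and Birc2 had r = -0.86 and rho = -0.86 (adjusted permutation p = 0.00747). The 4 colons with the highest Casp8 (Il10-/- Tnfr1-/- replicates 6, 4 and 1 and Il10-/- replicate 1) had the 4 lowest Birc2 values. It was -0.86 without the 2 farthest colons, -0.85 centred on genotype means, -0.92 within Il10-/- and -0.84 within Il10-/- Tnfr1-/- colons. On coding transcripts it was -0.87. It did, however, depend on the scaling between libraries: with an equal total per library r was -0.16 (permutation p = 0.639).

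**Figure D4:**
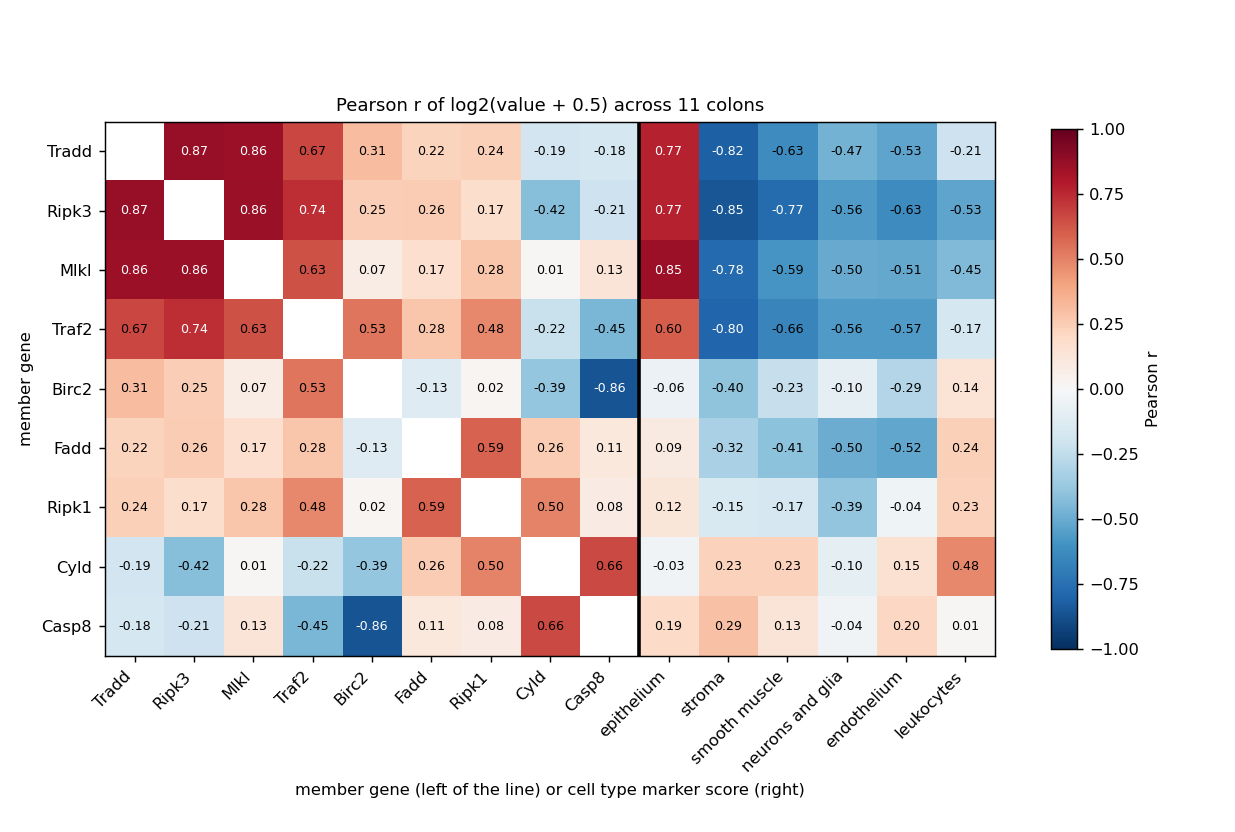
Pearson r (colour and number) of log2(value + 0.5) across 11 colons between the death complex genes (left of the line) and between each of them and the scores of 6 cell type marker lists (right). Tradd, Ripk3 and Mlkl form a block of 0.86 to 0.87 that is positive with the epithelial score and negative with the stromal score, and the dark blue cell of Casp8 and Birc2 is -0.86.

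The members were also set beside the makeup of the sample. A score was formed for each cell type as the mean of centred log2 values of its markers, and 54 relations of members to scores were computed, of which 8 (14.8%) passed the threshold, each with an absolute r of at least 0.77. Over all tested genes, 8.91% of relations with the 6 scores reached the smallest of these 8 values. By score it was 9.81% of genes for epithelium, 16.2% for stroma, 10.4% for smooth muscle, 8.27% for neurons and glia, 7.77% for endothelium and 0.988% for leukocytes, so that relations of this size were common among genes outside the death complex for every score but the last. By Spearman's rho, 5 of the 8 passed. Ripk3 correlated with the epithelial score (r = 0.77, adjusted permutation p = 0.0465), although its rho of 0.77 did not pass (adjusted permutation p = 0.0507). It was negative with the stromal score (r = -0.85, rho = -0.84, adjusted permutation p = 0.0216) and the smooth muscle score (r = -0.77, adjusted permutation p = 0.0402; rho = -0.70, adjusted permutation p = 0.101). The epithelial relation of Ripk3 was 0.85 without the 2 farthest colons, and it was 0.95 within Il10-/- and 0.94 within Il10-/- Tnfr1-/- colons. The stromal relation was -0.79, -0.95 and -0.73 in the same order. The smooth muscle relation no longer held without the 2 farthest colons (r = -0.62, permutation p = 0.0737) and was -0.51 within Il10-/- and -0.78 within Il10-/- Tnfr1-/- colons. At like epithelial scores the Il10-/- colons lay above the Il10-/- Tnfr1-/- colons in Ripk3, a difference that was not tested separately.

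Mlkl had r = 0.85 (rho = 0.88) with the epithelial and -0.78 (rho = -0.83) with the stromal score, and Tradd 0.77 (rho = 0.77, adjusted permutation p of rho = 0.0507) and -0.82 (rho = -0.83). Traf2 was past the threshold with the stromal score (r = -0.80, rho = -0.80). Without the 2 farthest colons Mlkl gave 0.69 and -0.67, Tradd 0.59 and -0.53 (permutation p = 0.0968 and 0.123), and Traf2 -0.69. The summed epithelial markers ran from 10568 to 23058 in Il10-/- and from 7889 to 25279 in Il10-/- Tnfr1-/- colons, with 2 of 10 markers higher and 8 lower on average in the latter. The stromal markers ran from 73.5 to 528 and from 261 to 1971, with 8 of 8 higher. The genotype difference in score had an exact permutation p of 0.558 for epithelium and 0.182 for stroma. How far epithelial or stromal levels take part in the genotype difference of Ripk3, Tradd or Mlkl was not tested. Only the smooth muscle score was added to the model, and the log2 fold changes of Ripk3, Tradd and Mlkl were then -0.83, -0.33 and -0.19. Leukocyte markers ran from 48.2 to 118 and from 45.6 to 359, with 10 of 10 higher (exact permutation p of the score = 0.312). Their score had no relation past the threshold with any member.

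**Figure D5:**
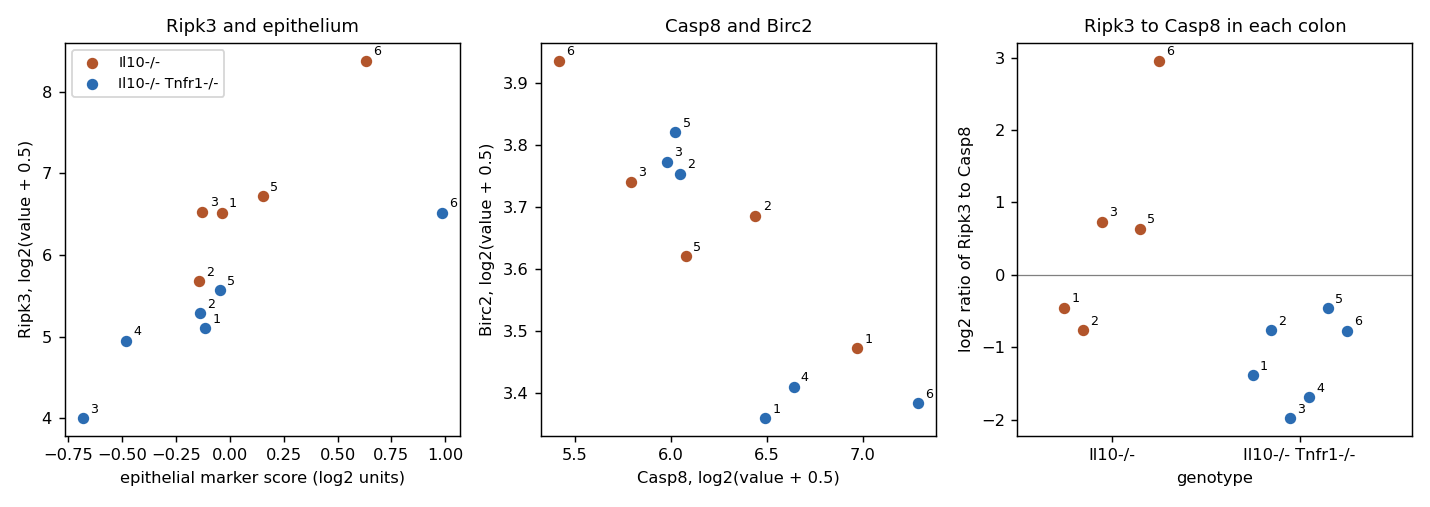
Left, Ripk3 (log2(value + 0.5)) against the epithelial marker score; middle, Birc2 against Casp8 on the same log2 scale; right, the log2 ratio of Ripk3 to Casp8 by genotype; points are 11 colons labelled with the replicate number. Ripk3 follows the epithelial score (r = 0.77), Birc2 falls with Casp8 (r = -0.86), and the ratio of every Il10-/- Tnfr1-/- colon is below 0.

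The genes whose profile over the 11 colons was most like that of a member, by Pearson r among genes with a mean of at least 5, differed between the members. Closest to Tradd were S100a6 (r = 0.99), which encodes a calcium-binding protein, and Esrp1 (0.98), the epithelial splicing regulator. Closest to Ripk3 were Ms4a8a (0.97) and the endoplasmic reticulum ribosome-binding gene Rrbp1 (0.97). Mlkl was nearest to Irf1 (0.96), the interferon-responsive transcription factor, and to the hexokinase gene Hk2 (0.96). Casp8 was nearest to the cytoskeletal genes Rock2 (0.95) and Arpc2 (0.95), Cyld to Cmtm6 (0.97) and Tlnrd1 (0.96), and Traf2 to Endog (0.94) and Mgat1 (0.93). Lower values were found for Ripk1 with Slc35e1 (0.93) and Cep350 (0.92), Birc2 with Nlk (0.91) and Flt3l (0.90), and Fadd with Ankrd22 (0.91) and Elovl7 (0.87). These are descriptions of 11 libraries that share a scaling, picked as the highest of all tested genes.

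The wider pathway was read through 4 lists, none of which had a gene past limma's adjusted threshold. Among ubiquitin and kinase partners of the receptor-bound complex, 13 of 22 tested genes were higher and 9 lower on average in Il10-/- Tnfr1-/- colons, 0 were at an unadjusted p under 0.05, and the median log2 fold change was 0.11 (all genes: 0.05). Rbck1, which encodes the HOIL-1 subunit of the linear ubiquitin ligase, was at 59.9 ± 18.4 (SD, n = 5) and 43.9 ± 4.40 (SD, n = 6), a log2 fold change of -0.40. It was -0.25 without Il10-/- replicate 6, -0.040 on coding and -0.032 on principal transcripts. The kinase gene Chuk was at 0.40, and the adaptors of the TBK1 kinase, Tank and Azi2, were at 0.52 and 0.33. Among the colons whose names start with 1, these 3 were at 0.060, 0.15 and -0.012, and Tank was at 0.34 without Il10-/- replicate 6.

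Among the brake on caspase-8, the executioner caspases and the mitochondrial arm of apoptosis, 10 of 20 genes were higher and 10 lower (median -0.02). At an unadjusted limma p under 0.05 there were 2, both lower, beside 8.34% of all genes (3.6% lower). Bid encodes the protein that caspase-8 cleaves to reach the mitochondria. It was at 10.7 ± 0.70 (SD, n = 5; 9.49 to 11.2) and 7.50 ± 0.97 (SD, n = 6; 5.89 to 8.48). The genotypes did not overlap, as for 0.575% of all genes. Its log2 fold change was -0.50 ± 0.14 (SE), with an adjusted p of 0.536 in limma and an exact permutation p of 0.00216. Bid was named because its p was the smallest of this list, and the exact p is not adjusted for that choice. Apaf1, the scaffold of the apoptosome, was at 31.4 ± 17.2 (SD, n = 5) and 16.9 ± 7.20 (SD, n = 6), or -0.82, but it was at -0.14 on coding and -0.13 on principal transcripts. The log2 fold change of Bid was -1.15 on coding and -1.20 on principal transcripts. Xiap, an inhibitor of executioner caspases, was at 0.60 (0.39 without Il10-/- replicate 6), and Bcl2 was at 0.38. Among the colons whose names start with 1, Xiap was at 0.12 and Bcl2 at 0.034.

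Of the death receptors and their ligands, 10 of 13 passed the filter on low values (Fasl, Lta and Tnfsf15 did not), with 5 higher and 5 lower and a median of -0.01. Besides Tnfrsf1a, the smallest p-values belonged to Tnf, at 5.37 ± 4.16 (SD, n = 5) and 1.98 ± 0.66 (SD, n = 6; log2 fold change -0.96), to the TWEAK gene Tnfsf12 (0.70) and to Fas (-0.34). Without Il10-/- replicate 6, Tnf was at -0.63 and Fas at -0.22, and among the colons whose names start with 1 Tnfsf12 was at 0.016 and Fas at -0.0063. Of 25 genes for other inputs, cofactors and membrane repair of necroptosis, 15 were higher and 10 lower with a median of 0.07 and 0 at an unadjusted p under 0.05. In this list the exosome adaptor Sdcbp was at 0.56, the phosphatase gene Ppm1b at 0.28, the receptor kinase gene Axl at 0.71 and the membrane repair gene Vps4b at 0.44. Without Il10-/- replicate 6, Sdcbp was at 0.34 and Axl at 0.43. Among the colons whose names start with 1, Sdcbp was at 0.048, Ppm1b at 0.097, Axl at -0.24 and Vps4b at -0.035. Vps4b was at 0.21 and Ppm1b at 0.13 on coding transcripts. Summed over all transcripts, Ripk3, at -1.53, was thus farther from 0 than any of the genes named from these lists except Tnfrsf1a (-1.60). On coding transcripts alone, Bid lay farther from 0 than Ripk3 (-1.06). On principal transcripts Bid was at -1.20 and Ripk3 at -0.82.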

How the data were processed

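Per the labels' protocols, the mRNA libraries were stranded and sequenced from one end. The submitters' processing notes name CASAVA, kallisto, sleuth and mm10 without settings. The authors deposited 1 scaled signal per transcript and library, not counts. The deposited table also holds, for each transcript, their ratio, log2 fold, natural log mean, p-value and q-value, of which only p and q were used. Of 12 labelled samples, 11 matched a column by title. Il10-/- replicate 4 was not analysed here, and 1 per-sample column that matched no title was not used. The labels describe each sample as the colon of one mouse.

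After 866 repeated rows were dropped, 113193 transcripts were summed to 35688 genes, with coordinates and sequences from GENCODE M21 (96.6% of transcripts matched). Genes over 1 in at least 5 samples (13561) were tested with limma 3.58.1 (R 4.3.3; trend and robust moderation) on log2(value + 0.5), two-sided, adjusted by Benjamini-Hochberg and called at 0.05. Fold changes are Il10-/- Tnfr1-/- minus Il10-/- on that scale and understate the change of low genes. The fit was tested on simulated data with 200 changed genes. Single values were compared by exact two-sided permutation over 462 assignments (numpy 2.4.6), and correlations with 100000 resamples (ranks from scipy 1.17.1). Genes named beyond the 9 were those of the ratios, the targeted gene, the 4 of smallest p in each pathway list and the 2 most correlated with each member. The 9 members, the 4 pathway lists and the 6 marker lists were chosen with earlier results of these data known. Alternatives covered the pseudocount, the filter, scaling, the title digit, a smooth muscle covariate, transcript classes and leaving out each replicate.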

Additional observations from a re-analysis of the deposited data

Results flagged for a closer look

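In 26 groups of 5 or 6 colons the highest or lowest colon was checked for a gap to the rest of its group. A colon lay beyond the 95% limit of Dixon's test in 3 groups. Chance alone flags about 1 group in 20 if values are normally distributed. For the flagged genes the check used abundances, not log2 values, so that rate may not apply. Ripk3 was at 333 in Il10-/- replicate 6, with the next Il10-/- colon at 105. Traf2 was at 21.5 in the same colon, with the next at 10.5. This colon also had the lowest stromal marker score of the Il10-/- group (-2.32), the largest sum of values and the largest share of signal on short transcripts, and its part in either value was not tested. Tradd was at 79.1 in Il10-/- Tnfr1-/- replicate 6, with the next colon of that genotype at 41.4, and this colon had the highest epithelial marker score of all (0.98).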

How the results depend on the processing

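Under all alternatives run, 0 of the 9 members passed the adjusted threshold of limma. Of all genes, 1 (Tnfrsf1a, -1.58) passed with quantile normalization, and 0 to 2 passed when one replicate was left out. The log2 fold changes of Ripk3 (-1.80 to -0.82), Tradd (-0.92 to -0.33) and Cyld (0.07 to 0.50) kept their sign in every alternative. An equal total per library moved the median over all genes from 0.05 to 0.19 and the share of higher genes at an unadjusted p under 0.05 from 56.9% to 75.2% (40.3% with median-ratio size factors). It turned Ripk1 (0.11), Fadd (0.0092) and Birc2 (0.031), all of which then lay below the median of all genes. Among colons whose names start with 1, as with that digit as a covariate, Fadd (0.051), Casp8 (-0.13), Traf2 (0.11), Azi2 (-0.012), Axl (-0.24) and Vps4b (-0.035) changed sign. With the smooth muscle score in the model Ripk1 (0.026), Traf2 (0.099), Axl (-0.052) and Tnfsf12 (-0.0045) did. Ripk1 was at 0.074 on coding and 0.056 on principal transcripts, where Mlkl was at 0.30 and Traf2 at 0.055. On coding transcripts without Il10-/- replicate 6, Ripk1 was at 0.12 and Traf2 at 0.067.

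Leaving out each replicate in turn gave ranges of -0.14 to 0.069 for Ripk1, -0.27 to 0.039 for Traf2 and -0.14 to 0.15 for the ratio of Birc3 to Birc2. For the ratio of Ripk3 to Casp8 the range was -2.15 to -1.21, and for that of Mlkl to Ripk3 0.73 to 1.07. Both lost their call without Il10-/- replicate 6, and among colons whose names start with 1 (-0.92 and 0.23), where 3 against 2 colons cannot reach the threshold. The number of member pairs past the correlation threshold was 0 without the 2 farthest colons and 0 within either genotype. Within a genotype, 5 or 6 colons cannot bring a pair under it unless several pairs reach small p together. The number was 1 on coding transcripts and 4 to 7 when one replicate was left out, with 7 without Il10-/- Tnfr1-/- replicate 2. Genes at an unadjusted p under 0.05 numbered 474 without Il10-/- replicate 6 and 2450 without Il10-/- replicate 1. The causes were not tested. No paired analysis was possible because replicates are numbered in sample order and nothing in the labels pairs the mice. The choices of coding or principal transcripts were added after seeing the data. Names starting with 2, 3 or 4 each cover 1 genotype, so that digit and genotype cannot be told apart there. Depth is unknown, and 5 and 6 colons limit the precision.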
